A study of Mus musculus with 3 samples.

Results

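Oligodendrocyte progenitor cells (OPCs) without detected transgene RNA were 333 of the 6676 CD45- cells that passed the cell filters, out of 20811 cells deposited. They were chosen by their raw unique molecular identifier (UMI) counts, each UMI standing for 1 captured RNA molecule. A member had at least 2 UMIs of Pdgfra, 0 UMIs of human EGFR and of the iCre recombinase, and at most 3 UMIs summed over Col1a1, Col1a2, Dcn and Lum, the collagen and matrix genes of fibroblasts. Of the members, 161 came from the early, 93 from the medium and 79 from the late tumor sample.

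The cells came from mouse glioblastomas driven by human EGFR and were profiled by inDrop single-cell RNA sequencing after a sort on CD45, a surface protein of immune cells. Every group shared 1 genotype, which included a conditional wild-type human EGFR transgene, constitutive loss of Cdkn2a (Cdkn2a-/-) and a conditional luciferase reporter, on a background mixed from Balb/cJ, SJL, FVBN/J, 129S4 and C57Bl/6J. Tumors were started in adult mice by a Cre lentivirus in the striatum, and the brain without cerebellum was dissociated, so tumor and surrounding brain entered together. The labels of the groups differed in stage, called early, medium and large (late here). Each stage had 1 tumor sample, split over 4 CD45- libraries in 3 sequencing runs. Stage therefore cannot be told apart from animal or from the handling of each sample. The paper pooled each of its Early samples from more than 1 mouse or tumor and names no medium stage in its single-cell data. Whether the early and medium samples here were pooled likewise is not settled here. Libraries of a stage are technical repeats, so no test between stages was possible.

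OPCs are the dividing glial cells that persist through the adult brain and give rise to myelinating oligodendrocytes. They depend on the PDGF receptor alpha, the product of Pdgfra, carry the surface proteoglycan NG2, the product of Cspg4, and are specified by the transcription factors Olig1, Olig2 and Sox10. They receive synaptic input through glutamate and GABA receptors, and Notch signaling is known to hold them in the progenitor state. Because OPCs are also a candidate cell of origin of EGFR-driven glioma, Pdgfra-positive cells with and without detected transgene RNA can be set side by side in the same tumors.

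The rule set cells apart by their human EGFR UMIs, whose counts in the medium and late samples ran on from 0 without a gap. Of the 6676 cells, 835 had at least 2 Pdgfra UMIs, and 770 of these were within the limit on matrix genes. None of the 161 such cells of the early sample had a human EGFR UMI. In the medium and late samples, 17 cells had 1 UMI, 24 had 2, 17 had 3, 24 had 4 and 349 had 5 or more, and 6 medium cells had iCre UMIs without human EGFR. The 414 cells with at least 2 human EGFR UMIs (119 medium, 295 late; median 11 and 13 UMIs of the transgene) formed the comparison class, called transgene cells below. Among members, 23 had exactly 2 Pdgfra UMIs, 71 had 3 to 5 and 239 had 6 or more; 83 further cells had 1 Pdgfra UMI and otherwise met the rule. The matrix genes were at 0 UMIs in 304 members, 2 members sat at the limit of 3, and 2 cells missed it with 4. Members had fewer UMIs per cell than transgene cells, so transgene RNA may have been missed in some of them. How many was not tested.

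The label held for most members when checked with 14 other OPC markers. At least 3 of the 14 markers were detected in 309 of 333 members (147 early, 86 medium, 76 late), and 40 members had all 14. The median member had 11, 12 and 11 markers at the early, medium and late stages, against 1, 2 and 2 in the other CD45- cells and 11 and 10 in medium and late transgene cells. The remaining 24 members (14 early, 7 medium, 3 late) had under 3 markers, and 8 of them had none. These few-marker cells held 15.3% of all member UMIs. They had 12523 UMIs of Ttr, the transthyretin gene of the choroid plexus, which is the epithelium that makes cerebrospinal fluid, against 116 in the 309 other members, and 149 against 0 of Igf2. The Ttr UMIs came from 11 of the 24, which held 12504 of them and 9.87% of all member UMIs, while the other 13 few-marker cells had at most 20 Ttr UMIs each. The test against transgene cells was also run without all 24, a comparison chosen after seeing the data. That run also left out the 10 late transgene cells with under 3 markers. Below, this test without the few-marker cells means without both groups. The described genes that then gained or lost the call are given with their list.

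**Figure D1:**
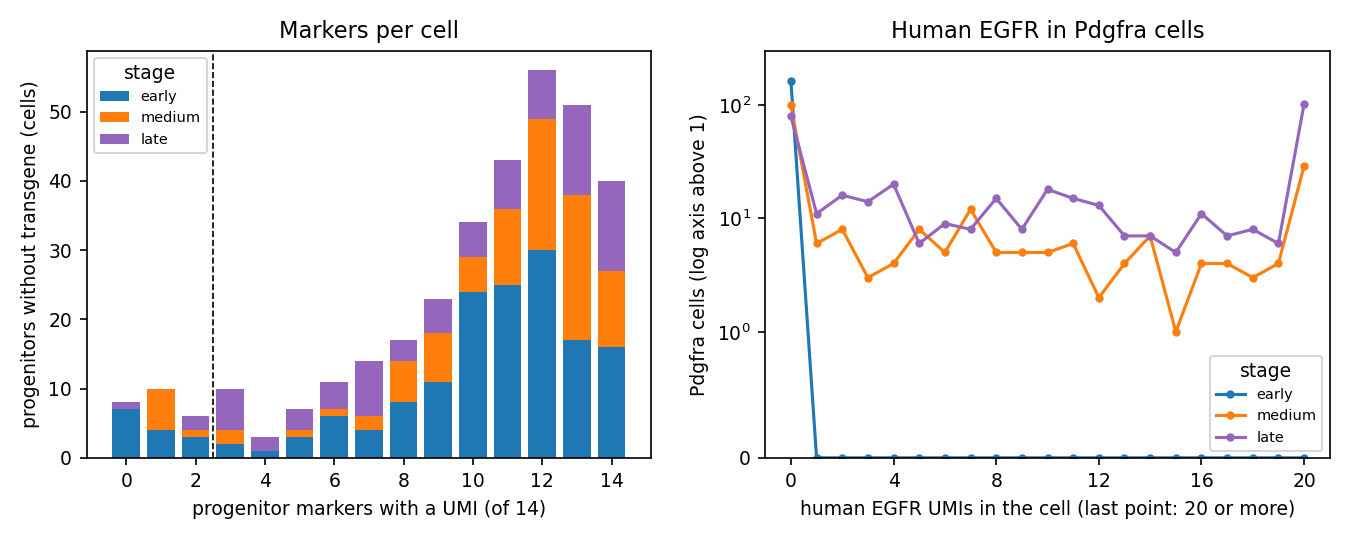
Left, the number of 14 OPC markers (Pdgfra left out) detected per member, as numbers of cells stacked by stage, with a dashed line at 3. Right, the number of cells with at least 2 Pdgfra UMIs and within the limit on matrix genes at each human EGFR UMI count by stage. The axis is logarithmic above its linear start, and the last point is 20 or more UMIs. Of 333 members, 24 lie under the line, and no early cell of the right panel had a human EGFR UMI.

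Members were sequenced less deeply than transgene cells and some shared cell barcodes across libraries. Median UMIs per member were 2661, 3371 and 2315 (early, medium, late) over 1450, 1707 and 1323 genes, and all members together gave 503961, 345394 and 202388 UMIs. Median UMIs per transgene cell were 7290 (medium) and 6434 (late). Libraries of 1 stage shared barcodes in 113 of 1000000 cell pairs against 6.88 across stages, and 40 members (19 early, 2 medium, 19 late) and 106 transgene cells (5 medium, 101 late) carried a shared barcode. Whether a shared barcode marks 1 cell sequenced in more than 1 library could not be settled, so some of these cells, mostly late ones, may be counted more than once. A doublet caller marked 6 members and 9 transgene cells; they were kept in the main values.

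RNA of OPC genes was also found, at a low level, in cells that should lack it. OPC markers lay far above that background in members: Olig1 was detected in 89.4% (early), 94.6% (medium) and 92.4% (late) of members, against 5.93%, 1.83% and 3.28% of endothelial cells, which should lack it. Olig1 was shared with oligodendrocytes, being detected in 80.1%, 86.8% and 87.3% of those with 0 Pdgfra UMIs. Cspg4 was detected in 68.9%, 76.3% and 67.1% of members against 2.22%, 4.59% and 8.20% of endothelial cells. Ptprz1, a receptor phosphatase of OPCs, was detected in 89.4%, 86.0% and 83.5% of members against 1.48%, 3.67% and 0%. In those oligodendrocytes Cspg4 was detected in at most 1.31% and Ptprz1 in at most 4.96% of cells at any stage. The endothelial cells were shallower, with median UMIs of 1464, 1531 and 1663. Human EGFR, 0 in members by the rule, was found in 0.0757%, 2.64% and 4.66% of oligodendrocytes.

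Markers of most other lineages were low in members, apart from the choroid plexus genes of the few-marker cells, while astrocyte and oligodendrocyte markers stood higher. Summed over each marker list and given as counts per 1000000 UMIs of the class (CPM), microglia markers were 83.3, 31.9 and 59.3 and T cell markers 1.98, 0 and 4.94 at the early, medium and late stages. Pericyte markers were 9.92, 0 and 4.94, endothelial markers 65.5, 43.4 and 178, and fibroblast markers 171, 188 and 88.9, or 2.46, 3.46 and 0 in the 309 cells with at least 3 OPC markers. Choroid plexus markers were at 12930, 17461 and 2475 CPM in all members and at 268, 96.8 and 82.5 in those 309 cells. Neuron markers were 393, 214 and 188, ependymal markers 101, 20.3 and 29.6, and red cell markers 250, 2.90 and 0. Astrocyte markers were 1429, 1621 and 1364, against 714 and 658 in medium and late transgene cells. Of the 6 astrocyte markers tested against transgene cells, 3 were higher in members and 2 lower. Oligodendrocyte markers, at 5836, 1847 and 3167, were far below the 36366, 29214 and 22694 CPM of the other CD45- cells. In the whole-body knockout, Cdkn2a had 0 UMIs in all members and 3 UMIs in transgene cells.

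Members made up a smaller part of the kept CD45- cells in the late tumor, but not of the cells without transgene UMIs. Their share of the 2760 early, 1617 medium and 2299 late CD45- cells was 5.83% (95% exact Clopper-Pearson interval 4.99 to 6.77), 5.75% (4.67 to 7.0) and 3.44% (2.73 to 4.26). With cells thinned to 1000 UMIs before the rule, it was 4.36% (3.62 to 5.20) early and 3.35% (2.64 to 4.19) late, intervals that overlap. Across libraries the share was 5.80% ± 0.722 (SD, n = 4) early, 5.97% ± 1.78 medium and 3.48% ± 0.816 late. The early libraries ran from 4.72% to 6.22% and the late ones from 2.74% to 4.33%, without overlap, while the medium ones, from 3.85% to 8.01%, overlapped both. Run by run the order of late below early was kept: 2.78% against 4.72% in run 1, 4.33% against 6.22% in run 2 and 4.02% against 6.13% in run 3.

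Cells with transgene RNA took up much of the late sample, where 1284 of 2299 cells had 0 transgene UMIs. Transgene cells with Pdgfra went from 0 of 2760 early cells, which allows a share of up to 0.134% by the exact interval, to 7.36% (6.13 to 8.74) of medium and 12.8% (11.5 to 14.3) of late cells. Counted over cells with 0 transgene UMIs only, a denominator added after seeing the data, members were 5.85% early, 7.37% medium (5.99 to 8.95) and 6.15% late (4.90 to 7.61), intervals that overlap. Shares of a dissociated and sorted sample depend on what was recovered, and fewer OPCs cannot be told apart from more of the other cells. Intervals here and below cover counting error only.

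**Figure D2:**
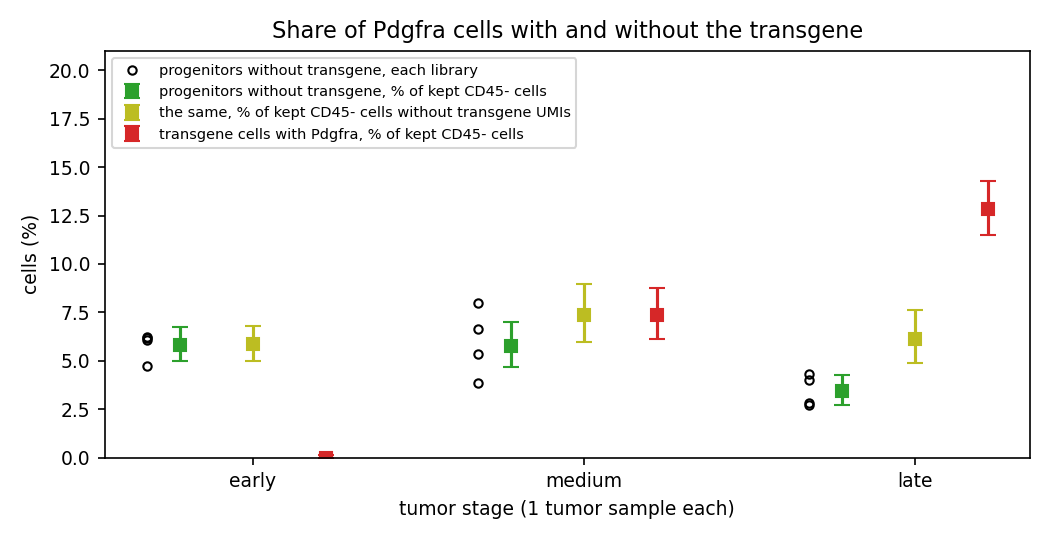
Percent of kept CD45- cells of each library that were members, members as a percent of cells without transgene UMIs, and transgene cells with Pdgfra, by stage. Points are libraries, 4 per stage, and bars are the share of the whole stage with its 95% Clopper-Pearson interval; the member share is 5.83%, 5.75% and 3.44%, and the transgene share 0%, 7.36% and 12.8%.

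Members and transgene cells of the same tumors differed in several gene lists. Of the genes tested, 18 of 26 for OPC identity, 5 of 10 of the Notch pathway and 8 of 17 for glutamate and GABA receptors were higher in members. Of the G2 and M phase genes 17 of 22 were lower, and of reactive and stem-like glial genes 9 of 14. MHC and interferon genes had lower summed levels in members of the medium tumor, while in the late tumor the classes were closer. Of 16 myelin genes 4 passed, in both directions. The test summed UMIs per tumor sample and class and used edgeR's quasi-likelihood test with the tumor sample as a block, over medium and late, 2 samples with both classes. Of 10123 genes tested, 643 were higher in members (6.35%) and 963 lower (9.51%) at a Benjamini-Hochberg adjusted p under 0.05. Without the few-marker cells 671 were higher and 1011 lower, and with shared barcodes left out 414 and 709. Without run 3 they were 116 and 190, and the counts of most lists described next were smaller too. With member and transgene cells thinned to 1000 UMIs, 182 were higher and 187 lower, but only 2534 genes could be tested. Genes outside those 2534, among them Hes5, Gabrb1, Ccnb1, Lgals1, Tnc and Igtp, have no result after thinning. For such genes, no mention of a lost call does not mean that it was kept. The fit had 2 pairs and 1 residual degree of freedom, and for 8370 of the 10127 genes fitted edgeR's prior degrees of freedom were infinite, so their p-values rest on a spread shared across genes rather than on each gene's own spread over these 2 tumor samples. For each gene list the members of it most abundant in these OPCs were named by rule, and further genes were picked after their values were seen, so those show the range and are not typical of their list. Without TMM scaling the split was 839 higher to 802 lower, with the median of all genes at 0.11 on the log2 scale against -0.01 with it.

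Most surface and matrix genes of OPC identity were higher in members. Both classes passed the same cut of 2 Pdgfra UMIs, which in the shallower members asks for more Pdgfra per UMI. Thinning was done after this cut, so its part in the levels of genes that accompany Pdgfra was not tested. Of the 26 genes of this list, 18 were higher and 0 lower, with a median log2 difference of 0.87 against -0.01 over all genes; across all alternatives 9 (without run 3) to 20 were higher and 0 lower, with 11 when the late sample and the block were left out together. Neu4, a sialidase of the oligodendrocyte lineage (chromosome 1, 94020451 to 94028334, plus strand, GRCm38), stood at 595 (530 to 667), 588 (510 to 674) and 726 (614 to 854) CPM in early, medium and late members. In transgene cells Neu4 was at 143 (120 to 169) and 145 (129 to 162) CPM. Neu4 was picked after its value was seen. Every member value of Neu4 lay above both transgene values, a log2 difference of 2.06 ± 0.24 (SE; adjusted p = 2.0e-15).

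Cspg4, which encodes NG2 (chromosome 9, 56865033 to 56899870, plus strand), was at 607, 834 and 860 CPM in members and at 357 and 223 CPM in transgene cells, a log2 difference of 1.46 ± 0.22 (adjusted p = 2.6e-09). The share of cells with a Cspg4 UMI did not follow that order, being 76.3% and 67.1% in medium and late members and 79.8% and 59.7% in the deeper transgene cells. Cspg5, the neuroglycan C gene, was at 2770, 3935 and 3617 CPM against 1086 and 1155, a log2 difference of 1.63 ± 0.17 (adjusted p = 6.0e-20). Pcdh15, a protocadherin, was at 599, 565 and 875 CPM against 181 and 173, and Lrrn1, a leucine-rich repeat membrane protein, at 345, 394 and 548 CPM against 132 and 104. C1ql1, a secreted C1q-like protein of OPCs, was at 1097 and 964 CPM in medium and late members against 368 and 279. These genes kept member values above transgene values in both tumors. Ptprz1 differed less, at 2776, 2475 and 2826 CPM against 1737 and 996, a log2 difference of 0.88 ± 0.17 (adjusted p = 7.5e-06). Of the other abundant genes of the list, Bcan, the brevican gene of the brain's extracellular matrix, was higher by 1.37 (adjusted p = 2.0e-11), Gpr37l1, a prosaposin receptor gene, by 0.64 (adjusted p = 0.0093) and Sulf2, a heparan sulfatase, by 0.60 (adjusted p = 0.015), while Serpine2, a protease inhibitor, did not pass (0.23, adjusted p = 0.46). Of the relatives of Bcan, Ncan (-0.32, adjusted p = 0.39) and Vcan (0.29, adjusted p = 0.42) did not pass the test. With shared barcodes left out Gpr37l1 (adjusted p = 0.077) and Sulf2 (adjusted p = 0.13) lost the call, as they did after thinning to 1000 UMIs per cell (0.092 and 0.098), when Ptprz1 lost it too (adjusted p = 0.067).

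Some lineage transcription factors were higher in members, while most of the list did not pass the test. Of 27 glial transcription factor genes 6 were higher and 0 lower, with a median log2 difference of 0.32; without run 3 the count was 2, and it was 3 in fits without the block that also left out the medium or the late sample. Olig1, which is needed for maturation and myelin repair, was at 2679, 3072 and 3093 CPM in members and 1592 and 1369 in transgene cells, a difference of 0.94 ± 0.16 (adjusted p = 5.0e-07). Olig2, which specifies the lineage, was at 833, 1109 and 1300 CPM against 592 and 468, a difference of 1.06 ± 0.20 (adjusted p = 3.2e-06). Sox10, required for oligodendrocyte differentiation, was at 1328, 1607 and 2060 CPM against 938 and 893, a difference of 0.87 ± 0.18 (adjusted p = 4.0e-05). All 3 factors were still abundant in transgene cells. The next most abundant factors, Tcf4 (0.27, adjusted p = 0.45), Nfib (0.33, adjusted p = 0.40) and Nfia (0.10, adjusted p = 0.85), which act in neurons and astrocytes as well, did not pass.

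The Notch pathway was divided likewise. Of 10 tested Notch pathway genes 5 were higher in members and 0 lower, with a median of 1.35; without runs 1, 2 and 3 in turn the count was 3, 2 and 1, without the block and the medium sample 1, and DESeq2, which tested 4, called 0 (2 at an unadjusted p under 0.05). Summed over the list, members had 585 CPM and transgene cells 229 in the medium tumor, and 736 against 281 in the late tumor. Hes5, a repressor switched on by Notch in neural progenitors, was at 63.5 (43.4 to 89.6), 75.3 (49.2 to 110) and 98.8 (60.4 to 153) CPM in members. In transgene cells Hes5 was at 7.47 (3.00 to 15.4) and 6.0 (3.19 to 10.3) CPM, a log2 difference of 3.57 ± 0.58 (adjusted p = 4.6e-08). The intervals of the classes do not overlap in the medium or in the late tumor. Hes1, a related repressor, was at 53.6, 101 and 88.9 CPM against 10.7 and 34.1 (2.07 ± 0.49, adjusted p = 0.00041). Dll3, a ligand that acts in the same cell, was higher by 1.50 (adjusted p = 0.015), Hey1, another target, by 1.46 (adjusted p = 0.015) and Nrarp, a feedback inhibitor, by 2.01 (adjusted p = 0.020). The receptor Notch1, at 85.3, 66.6 and 69.2 CPM against 54.4 and 66.0 (0.06, adjusted p = 0.96), and the ligand Jag1 (1.24, adjusted p = 0.095) did not pass. Neither did the ligand Dll1 (0.45, adjusted p = 0.70), the receptor Notch2 (0.53, adjusted p = 0.73) nor Hey2, a further target, which was at 23.8, 20.3 and 109 CPM in members against 30.9 and 28.6 (0.75, adjusted p = 0.40) and so lower in medium and higher in late members. Nrarp lost the call with shared barcodes left out (adjusted p = 0.090) and Hes1 after thinning (adjusted p = 0.065). Hes1 was the only gene of the Notch list that could be tested after thinning, so Hes5, Dll3, Hey1 and Nrarp have no result at equal depth.

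Some genes of neurotransmitter receptors and potassium channels were higher in members. Of 17 glutamate and GABA receptor genes tested 8 were higher and 0 lower (median 1.00); 10 were called without the block and with the early sample included, 2 by DESeq2 and 1 without run 3. Of the 6 most abundant, 4 were higher. These were Gria2, Gria4 (0.92, adjusted p = 0.019), Grin3a, an NMDA receptor subunit (1.07, adjusted p = 0.0013), and Gabbr1, a GABA-B receptor subunit (1.58, adjusted p = 6.9e-05). Gria3 (0.25, adjusted p = 0.65) and Grm5 (0.59, adjusted p = 0.19) did not pass. With shared barcodes left out Gria2 (adjusted p = 0.079) and Gria4 (adjusted p = 0.16) were no longer called, nor were they after thinning (0.051 and 0.059). Gabrb1, a GABA-A receptor subunit picked for its size, was at 69.5, 57.9 and 34.6 CPM in members and 2.13 and 9.69 in transgene cells, a log2 difference of 2.81 ± 0.71 (adjusted p = 0.0013). Grik1, a kainate receptor subunit picked likewise, was at 51.6, 72.4 and 79.1 CPM against 21.3 and 11.5 (2.12 ± 0.53, adjusted p = 0.0010). Gria2, the AMPA receptor subunit that limits calcium entry, was at 470, 446 and 380 CPM against 206 and 239 (0.77 ± 0.24, adjusted p = 0.014). These receptor genes had higher CPM in members of both tumors. Slc1a2, a glutamate transporter and 1 of the astrocyte markers used here, was higher as well, at 583, 727 and 593 CPM against 141 and 81.2 (2.49 ± 0.24, adjusted p = 2.4e-21). Of 15 ion channel genes 4 were higher and 0 lower (median 0.83). They were Tmem100, a regulator of sensory channels, at 446, 562 and 489 CPM against 151 and 94.6 (2.0 ± 0.25, adjusted p = 2.8e-13), and the potassium channels Kcnj16 (1.72, adjusted p = 0.012), Kcnd2 (1.21, adjusted p = 0.027) and Kcna2 (1.33, adjusted p = 0.018); without run 1, 2 or 3 in turn the count was 1, 2 and 1, and Kcna2 lost the call with shared barcodes left out (adjusted p = 0.080) and after thinning (adjusted p = 0.071). The abundant potassium channel gene Kcnj10 did not pass (0.27, adjusted p = 0.61), nor did Kcnd3 (0.56, adjusted p = 0.46), Scn3a (0.07, adjusted p = 0.95) and Kcnk1 (1.18, adjusted p = 0.10).

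Growth factor receptors moved in both directions. Of 11 genes tested 3 were higher and 2 lower in members (median 0.80), and without run 3 edgeR called 0 of 8 (4 higher and 2 lower at an unadjusted p under 0.05). Ntrk2, the receptor for BDNF, was at 427, 510 and 573 CPM in members and 268 and 275 in transgene cells (0.87 ± 0.23, adjusted p = 0.0022). Ntrk3, the neurotrophin-3 receptor, was higher by 1.36 (adjusted p = 4.2e-05) and Igf1r, the IGF-1 receptor, by 1.56 (adjusted p = 0.011, or 0.077 without the few-marker cells). Erbb3, a receptor for neuregulins, was lower by 1.06 on the log2 scale, at 49.6, 66.6 and 74.1 CPM against 134 and 134 (adjusted p = 0.028). The Erbb3 call was lost with shared barcodes left out (adjusted p = 0.052) and after thinning (adjusted p = 0.31), and that of Ntrk2 after thinning (adjusted p = 0.11). Ephb2 was lower too, at 25.8, 2.90 and 9.88 CPM against 41.6 and 30.0 (adjusted p = 0.0075). Ddr1, a collagen receptor (0.57, adjusted p = 0.27), and Fgfr1, a fibroblast growth factor receptor (0.77, adjusted p = 0.27), did not pass. The mouse Egfr gene, which is separate from the transgene, had 4, 6 and 9 UMIs in early, medium and late members and did not pass (1.90 ± 0.78, adjusted p = 0.080), although without the few-marker cells it did (2.12, adjusted p = 0.037). Of 13 genes of MAPK signaling and feedback, 2 were higher, Etv5 (1.28, adjusted p = 0.00011) and Etv4 (1.05, adjusted p = 0.041), both transcription factors downstream of the pathway, and 1 was lower, Ccnd1, the cyclin D1 gene, at 401, 790 and 623 CPM against 841 and 1080 (adjusted p = 0.038). Whichever run was left out, 1 gene of the list was higher. The Ccnd1 call was lost without the few-marker cells (adjusted p = 0.14), with shared barcodes left out (adjusted p = 0.10) and without any 1 run, and after thinning its log2 difference was 0.04 (adjusted p = 0.95). The Etv4 call was lost with shared barcodes left out (adjusted p = 0.13) and after thinning (adjusted p = 0.11). The feedback inhibitors Spry1 (0.48, adjusted p = 0.25), Spry2 (0.19, adjusted p = 0.73) and Spred1 (0.41, adjusted p = 0.35) did not pass, and neither did Phlda1 (-0.36, adjusted p = 0.33).

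**Figure D3:**
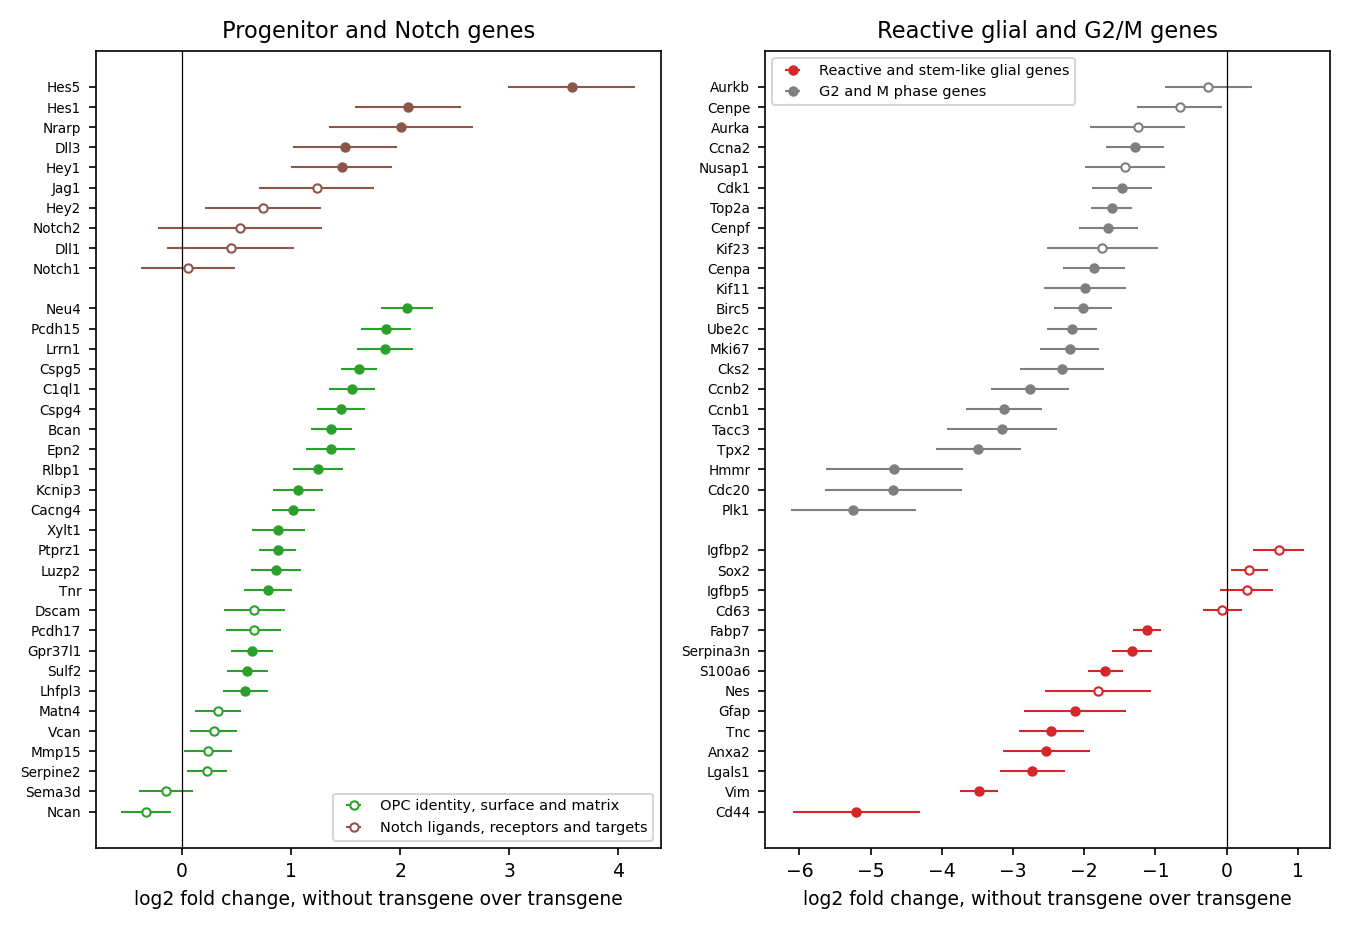
Log2 difference between members and transgene cells, with its standard error, for genes of OPC identity and the Notch pathway (left) and for reactive glial and G2/M genes (right); values above 0 are higher in members, and filled points passed an adjusted p of 0.05 in edgeR's test over 2 tumor samples. Neu4 (2.06) and Hes5 (3.57) lie far to the higher side and Vim (-3.48) and Mki67 (-2.21) to the lower side.

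Many genes of dividing cells were lower in members, few of which reached 10 UMIs of the G2 and M phase genes. No UMI of these genes was found in 261 of 333 members and in 151 of 414 transgene cells. Of 22 genes of the G2 and M phases 17 were lower in members and 0 higher, with a median log2 difference of -2.0; without runs 1, 2 and 3 in turn the count was 10, 9 and 7, and DESeq2 called 8. Without the few-marker cells 19 were lower and the median was -3.05. Mki67, the Ki-67 proliferation antigen (chromosome 7, 135689784 to 135716361, minus strand), was at 19.8, 29.0 and 39.5 CPM in members against 113 and 184 CPM in transgene cells, a log2 difference of -2.21 ± 0.41 (adjusted p = 3.7e-06). Top2a, the topoisomerase of dividing cells, was at 67.5, 153 and 69.2 CPM against 251 and 422 (-1.61 ± 0.29, adjusted p = 1.1e-06), and Ube2c, a ubiquitin ligase partner of mitosis, at 67.5, 60.8 and 39.5 CPM against 166 and 290 (-2.17 ± 0.35, adjusted p = 4.0e-08). Cenpf (-1.66, adjusted p = 0.0011), Cdk1 (-1.47, adjusted p = 0.0059) and Ccna2 (-1.29, adjusted p = 0.015) were lower as well. Without the few-marker cells Top2a was at -3.48, Ube2c at -3.57, Cenpf at -2.97 and Cdk1 at -3.03. With shared barcodes left out Ccna2 lost the call (adjusted p = 0.070). Ccnb1, the cyclin B1 gene, picked for its size, was at 17.9, 8.69 and 19.8 CPM against 84.3 and 137 (-3.13 ± 0.54, adjusted p = 2.9e-07). The signal within members came from few cells. With at least 10 UMIs over the list taken as dividing, 5 of 333 members (1.50%, 0.489 to 3.47) were, and those 5 cells held 443 of the 547 UMIs of the list. Of these cells 2 were few-marker cells, among them the only medium one, which had 1 of the 14 markers and 165 of the UMIs. Among members with at least 3 markers 3 of 309 were dividing (0.971%, 0.201 to 2.81), with 124 of 211 UMIs, and none of the 86 medium members was. Of 414 transgene cells 119 were (28.7%, 24.4 to 33.4), 17.6% in the medium and 33.2% in the late tumor, in cells of greater depth. A cut of 10 raw UMIs is easier to reach in deeper cells. Of 17 S phase genes 6 were lower and 0 higher (median -0.89). Among the 6 most abundant 1 passed, the helicase gene Mcm4 (-1.81, adjusted p = 0.0061), while Slbp (-0.16, adjusted p = 0.81), Pcna (-0.57, adjusted p = 0.27), Rrm1 (-0.73, adjusted p = 0.13), Dut (-0.15, adjusted p = 0.85) and Mcm5 (-0.65, adjusted p = 0.39) did not. Without the few-marker cells 9 S phase genes were lower (median -1.44), among them Pcna (-1.05, adjusted p = 0.036) and Mcm5 (-1.41, adjusted p = 0.049). With shared barcodes left out Mcm4 lost the call (adjusted p = 0.075). The largest difference of those described was in Rrm2, a ribonucleotide reductase subunit, which was at 33.7, 11.6 and 39.5 CPM against 112 and 168 (-2.71 ± 0.45, adjusted p = 1.2e-07); it lost the call after thinning (adjusted p = 0.054). Without runs 1, 2 and 3 the count of S phase genes was 1, 3 and 2. Cdkn2b, a cell cycle inhibitor next to the deleted Cdkn2a, was lower as well, at 7.94, 5.79 and 9.88 CPM against 34.1 and 64.1 (adjusted p = 0.0024), a call lost without run 1 or run 3.

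Most tested genes of reactive and stem-like glia were lower in members. Of 14 genes tested 9 were lower and 0 higher, with a median log2 difference of -1.76; without run 3 the count was 4, and DESeq2 called 5. Among those most abundant in members, some passed and some did not. Sox2, a stem cell factor (0.32, adjusted p = 0.48), Cd63, a tetraspanin (-0.06, adjusted p = 0.92), and the IGF binding protein genes Igfbp2 (0.73, adjusted p = 0.17) and Igfbp5 (0.28, adjusted p = 0.70) did not pass (-1.29 for Igfbp2 and -0.17 for Igfbp5 without the few-marker cells, adjusted p = 0.16 and 0.90), while Fabp7 and S100a6, a calcium-binding protein, at 89.3, 159 and 222 CPM against 499 and 636 (-1.71 ± 0.25, adjusted p = 5.0e-10), were lower. Vim, Lgals1 and Tnc were picked after their values were seen. Vim, which encodes the intermediate filament vimentin (chromosome 2, 13573927 to 13582826, plus strand), was at 61.5 (41.8 to 87.3), 49.2 (28.7 to 78.8) and 153 (104 to 217) CPM in members. In transgene cells Vim was at 708 (655 to 764) and 1192 (1146 to 1239) CPM, a difference of -3.48 ± 0.26 (adjusted p = 4.0e-36). A Vim UMI was found in 8.07%, 7.53% and 13.9% of members against 51.3% and 55.6% of transgene cells. Lgals1, the galectin-1 gene, was at 49.6, 31.8 and 4.94 CPM against 70.4 and 257 (-2.73 ± 0.46, adjusted p = 1.8e-07), or -4.17 without the few-marker cells. Tnc, the tenascin C gene, was at 23.8, 31.8 and 9.88 CPM against 72.5 and 203 (-2.46 ± 0.46, adjusted p = 2.5e-06). Cd44, a hyaluronan receptor, had 1 UMI in all members against 48 and 199 in transgene cells, a ratio of the latter to medium and late members of 43.6 (7.75 to 1728 by counting). Fabp7, a fatty acid binding protein of glial progenitors, differed less, at 629, 683 and 751 CPM against 1581 and 1282 (-1.12 ± 0.19, adjusted p = 2.1e-07), and lost the call after thinning (adjusted p = 0.11).

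MHC class I genes stood far apart between the classes in the medium tumor and close together in the late tumor. Of 11 MHC class I and antigen processing genes tested 4 were lower in members and 0 higher, and without the block and with the early sample included edgeR called 0, also at an unadjusted p under 0.05; without run 3 it called 1 lower. The call rested on the medium tumor: in fits without the block, 8 of 14 were lower with the late sample left out and 0 of 10 with the medium sample left out (1 higher at an unadjusted p under 0.05), each with 1 transgene sum that is assumed to vary like the members' sums. Their summed level in the medium tumor was 1650 CPM in members against 10030 CPM in transgene cells, a log2 difference of -2.60. In the late tumor it was 692 CPM against 609 CPM, a difference of 0.19. H2-K1, a classical class I heavy chain (chromosome 17, 33996017 to 34000347, minus strand), was at 119, 330 and 49.4 CPM in early, medium and late members and at 2359 and 99.2 CPM in medium and late transgene cells. It passed the test (-2.50 ± 0.27, adjusted p = 4.6e-18), while H2-D1, at 256, 649 and 272 CPM against 3487 and 123 (-1.01 ± 1.96, adjusted p = 0.86), and B2m, the shared light chain, at 192, 339 and 143 CPM against 2539 and 194 (adjusted p = 0.42), did not. The antigen processing genes Tapbp (-0.31, adjusted p = 0.74), Psme1 (-0.73, adjusted p = 0.35) and Tap2 (0.17, adjusted p = 0.88) did not pass either. Reads of near-identical H2 genes may be split between copies, so values of single heavy chains are uncertain.

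Genes induced by interferon had a like pattern. Of 15 tested 9 were lower in members and 0 higher (median -2.07), with 2 called without run 3, 1 without the block and 2 without the block and with the early sample included. Without the block, 16 of 23 were lower with the late sample left out and 0 of 9 with the medium sample left out (1 lower at an unadjusted p under 0.05). Summed, they were at 599 CPM against 3439 CPM in the medium tumor and at 316 against 404 CPM in the late tumor. Among the most abundant, Irgm1, an immunity-related GTPase (-2.56, adjusted p = 5.0e-09), and Irf1, an interferon regulatory factor (-2.18, adjusted p = 0.00015), were lower. Ifi27 (-0.18, adjusted p = 0.81), Ifit2 (-1.37, adjusted p = 0.13) and Irf9 (-1.03, adjusted p = 0.24) did not pass. Igtp, an interferon-inducible GTPase picked for its size, was at 5.95, 23.2 and 0 CPM in members and 556 and 5.08 CPM in transgene cells (-4.69 ± 0.52, adjusted p = 8.8e-17). The other CD45- cells also had more MHC class I RNA in the medium sample, 5696 CPM against 1467 early and 862 late, and the part of that background in the member values was not tested. MHC class II genes, 3 tested and 2 lower, H2-Eb1 (-3.73, adjusted p = 5.2e-09) and H2-DMa (-1.72, adjusted p = 0.035) but not the invariant chain gene Cd74 (-1.07, adjusted p = 0.35), were summed at 95.5 CPM against 803 in the medium and 29.6 against 20.3 in the late tumor. Without the few-marker cells H2-DMa did not pass (adjusted p = 0.092), 1 of the 3 was lower without run 1 or run 3, and without the block edgeR called 0 of the 3, with the early sample included or not and also at an unadjusted p under 0.05, as did DESeq2 of the 2 it tested.

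Genes of later oligodendrocyte stages had members on both sides. Of 16 myelin genes 3 were higher, Pllp (0.69), Mag (1.19) and Car2 (1.67), and 1 lower, Cldn11 (-1.17), while the abundant Mbp (0.37, adjusted p = 0.37) and Cnp (-0.57, adjusted p = 0.056) did not pass; without the few-marker cells 1 was higher and 2 lower, and Car2 (0.15, adjusted p = 0.96), Mag (-0.02, adjusted p = 0.99) and Cldn11 (-1.67, adjusted p = 0.67) did not pass. Without runs 1 and 2 in turn 1 and 2 were higher and 1 and 0 lower, and without run 3 edgeR called 0 of 16 (2 higher and 2 lower at an unadjusted p under 0.05). With shared barcodes left out the calls of Pllp (adjusted p = 0.081), Mag (adjusted p = 0.16) and Car2 (adjusted p = 0.051) were lost, and after thinning those of Pllp (adjusted p = 0.098), Car2 (adjusted p = 0.25) and Cldn11 (adjusted p = 0.14). Of 13 genes of committed precursors, the cells between OPC and oligodendrocyte, 2 were higher and 2 lower (2 and 1 without the few-marker cells, 1 and 1 without any 1 run). Gpr17, a receptor that marks that step, was at 885, 1216 and 1586 CPM in members against 1150 and 643 (0.56 ± 0.19, adjusted p = 0.023), and Cd9, a tetraspanin, at 982, 1034 and 1349 CPM against 2241 and 1572 (-0.80 ± 0.18, adjusted p = 0.00016). Gpr17 lost the call with shared barcodes left out (adjusted p = 0.22) and after thinning (adjusted p = 0.20), and Cd9 after thinning (adjusted p = 0.10). Sirt2 (0.08, adjusted p = 0.88), Lims2 (-0.26, adjusted p = 0.57) and Fyn (-0.26, adjusted p = 0.53) did not pass.

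Metabolic and stress genes were also divided. In edgeR's test 0 of 18 cholesterol synthesis genes passed (median -0.11), with 1 lower at an unadjusted p under 0.05, and DESeq2 called 0 of 11; the most abundant, Hmgcs1, was at 288, 211 and 252 CPM against 277 and 249. Of 18 glycolysis and hypoxia genes 2 were higher, Vegfa (1.52, adjusted p = 0.00046) and Slc2a1, the glucose transporter GLUT1 (2.12, adjusted p = 0.011), and 4 were lower, among them Gapdh (-0.71, adjusted p = 0.0067), Pkm, the pyruvate kinase gene (-0.84, adjusted p = 0.0025), and Ldha, a lactate dehydrogenase subunit (-1.25, adjusted p = 0.00012). Without run 3 edgeR called 0 of 16 glycolysis and hypoxia genes (2 higher and 4 lower at an unadjusted p under 0.05). With shared barcodes left out Slc2a1 (adjusted p = 0.059) and Gapdh (adjusted p = 0.055) lost the call, and after thinning Gapdh (adjusted p = 0.40), Pkm (adjusted p = 0.092) and Ldha (adjusted p = 0.066) did. Immediate-early and stress genes, which also respond to dissociation, were split with 7 higher and 8 lower of 23 (1 and 2 without run 3). Among the most abundant, Jun (0.55, adjusted p = 0.014), Jund (0.89, adjusted p = 0.00013) and Dusp1, a MAPK phosphatase (1.35, adjusted p = 2.6e-08), were higher, while Fos (0.31, adjusted p = 0.12), Egr1 (-0.26, adjusted p = 0.31) and Junb (0.12, adjusted p = 0.76) did not pass, and Zfp36, an RNA-binding regulator of inflammatory transcripts, was lower, at 77.4, 72.4 and 138 CPM against 633 and 469 (-2.58 ± 0.27, adjusted p = 4.6e-18). Jun lost the call with shared barcodes left out (adjusted p = 0.10) and after thinning (adjusted p = 0.16), and Jund after thinning (adjusted p = 0.10). Of the 4 chemokine and cytokine genes tested 1 was higher, Cx3cl1, the ligand of the microglial receptor CX3CR1, at 103, 89.8 and 93.9 CPM against 36.3 and 16.1 (1.76, adjusted p = 0.0029). Without run 1, 2 or 3 in turn edgeR called 0 of these 4 (1, 1 and 2 higher and 1, 0 and 0 lower at an unadjusted p under 0.05), and DESeq2 called 0 of the 3 it tested (1 higher unadjusted). Of 3 ERBB ligand genes tested 1 was higher, Nrg1, the neuregulin 1 gene (2.26, adjusted p = 0.040). Without run 1, 2 or 3 in turn edgeR called 0 of the 3, 2 and 2 ligand genes it tested (1, 0 and 0 higher at an unadjusted p under 0.05). The Nrg1 call was also lost with DESeq2, when the filter on low counts was dropped and with the doublet calls removed. After thinning Nrg1 was not tested. The mouse Tgfa gene, a ligand of EGFR, was at 246, 165 and 242 CPM against 220 and 197 (-0.18, adjusted p = 0.75), and Hbegf, another EGFR ligand, did not pass (-0.78, adjusted p = 0.19).

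**Figure D4:**
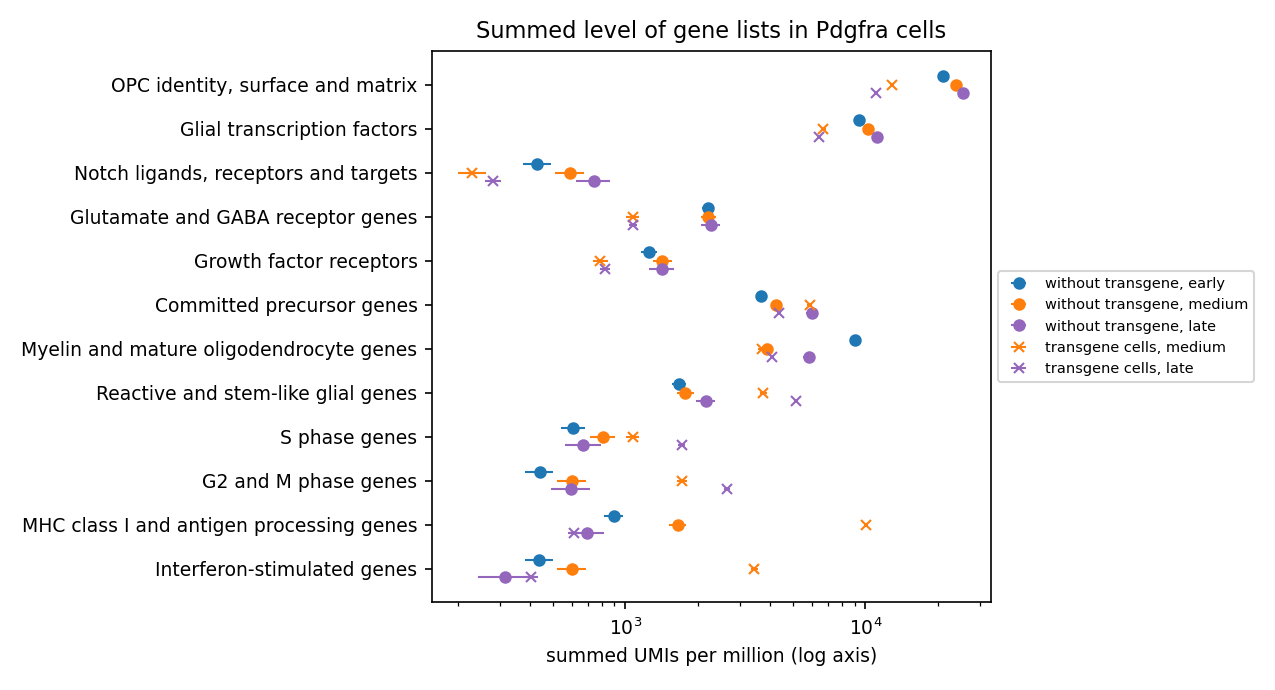
Summed level of 12 gene lists in CPM on a log axis, with 95% Poisson intervals, for members at the early, medium and late stages (circles) and transgene cells at medium and late (crosses). MHC class I genes are at 10030 CPM in medium transgene cells and at 609 to 1650 CPM in members of every stage and in late transgene cells, and G2/M genes are lower in members of both tumors.

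The genes with the largest differences were named by a rule on size among those past the threshold, 10 in each direction. On the higher side, F5, Igf2, Ace, Clic6 and Htr2c came from few-marker cells and could not be tested without them. St8sia3, a sialyltransferase, had 37, 20 and 20 UMIs in early, medium and late members against 1 and 2 in transgene cells, a fold of 75.6 (24.1 to 382 by counting; adjusted p = 8.4e-12). Vipr2, a receptor for vasoactive intestinal peptide, had 14, 12 and 9 against 0 and 3 (39.7-fold, 11.8 to 208). Spock1, a secreted proteoglycan gene, had 5, 7 and 8 UMIs against 0 and 2 (42.5-fold, 9.89 to 383), and Six3, a forebrain homeobox gene, had 11, 12 and 8 against 0 and 3 (37.8-fold, 11.2 to 199).

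On the lower side Egflam, which encodes the matrix protein pikachurin, had 0 UMIs in all members against 32 and 281 in medium and late transgene cells, at least 18.4-fold lower with 3 UMIs over the group as the floor. Ddr2, a collagen receptor, had 0 against 27 and 48 UMIs, at least 4.41-fold lower. Crym, a thyroid hormone binding protein, had 1 UMI in members against 21 and 505, a ratio of 92.8 (16.6 to 3673), and Dhh, the desert hedgehog ligand, had 1 against 34 and 249, a ratio of 49.9 (8.89 to 1979). The others, besides Cd44, were Emp1 (50.6, 9.02 to 2007), Egr3 (41.5, 7.37 to 1645), Plk1 (48.0, 8.54 to 1903), Gbp7 (19.1, 5.24 to 159) and Emilin1 (41.8, 7.43 to 1659), each with 1 or 2 UMIs in medium and late members. In cells with at least 3 markers Postn, the periostin gene, joined them with 0 UMIs against 76 and 561, at least 33.4-fold lower.

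Within members the OPC program changed little with stage. Precursor and Notch genes were higher at the later stages, and myelin RNA was lower in the medium sample outside run 3. With 1 tumor sample per stage these are descriptions, called past 2-fold among genes with at least 20 UMIs over both stages. From early to late, 693 of 7497 genes were at least 2-fold higher (9.24%) and 684 at least 2-fold lower (9.12%). From early to medium the counts were 607 of 8310 (7.3%) and 632 (7.61%), and from medium to late 534 of 6309 (8.46%) and 512 (8.12%). Of the 26 OPC identity genes 0 were past 2-fold from early to late in either direction, and their summed level differed by 0.28 on the log2 scale (0.23 to 0.33), or 0.04 without the few-marker cells. Early libraries were at 19186 to 23054 CPM, below the medium ones at 23193 to 24619, and the late ones, at 22997 to 27883, overlapped both.

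Committed precursor genes were higher in the late members. Their summed level was 3661, 4242 and 5998 CPM, and 4 of 13 genes were at least 2-fold higher from early to late and 0 lower. The late libraries, 5292 to 6810 CPM, all lay above the early ones, 3318 to 4367, and the medium ones, 3548 to 4670. The summed log2 ratio of late to early for Committed precursor genes was 0.71 (0.61 to 0.82), and 0.44, 0.77 and 0.88 in runs 1, 2 and 3. Without the few-marker cells it was 0.51, with 2 genes past 2-fold. Gpr17 was at 885 (805 to 971), 1216 (1102 to 1338) and 1586 (1417 to 1769) CPM, with libraries at 939 ± 259, 1196 ± 318 and 1578 ± 291 (SD, n = 4). Bcas1, a marker of newly forming oligodendrocytes, was at 97.2, 177 and 692 CPM, but 79 of its 140 late UMIs came from 1 cell, and late libraries ranged from 181 to 1822 CPM.

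The Notch list was also higher at each later stage. Its summed level in members was 429, 585 and 736 CPM, with 4 of 9 genes at least 2-fold higher from early to late and 0 lower. For Notch ligands, receptors and targets the log2 ratio of late to early was 0.78 (0.47 to 1.09), or 0.88, 1.04 and 0.32 within runs 1, 2 and 3, and 0.64 without few-marker cells. The early libraries, at 367 to 489 CPM, all lay below the medium ones, at 504 to 760, and the late ones, at 423 to 1049, overlapped both. Hey1, at 29.8, 72.4 and 109 CPM, and Dll3, at 47.6, 66.6 and 109 CPM, were among the genes that followed this order.

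MHC class I RNA peaked at the medium stage in members too. MHC class I and antigen processing genes summed to 893, 1650 and 692 CPM, and 3 of 9 tested genes were at least 2-fold higher from early to medium and 0 lower. The log2 ratio of medium to early was 0.89 (0.71 to 1.07), or 1.29, 0.62 and 0.22 in runs 1, 2 and 3, and late to medium it was -1.49, -1.16 and -1.05. Single libraries overlapped in part: medium library D, at 870 CPM, lay within the early range of 584 to 1063, while the other medium libraries were at 1480 to 2324. Late libraries were at 414 to 825 CPM.

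Myelin RNA in members was higher in the early than in the medium libraries of runs 1 and 2, while in run 3 the stages overlapped. Myelin and mature oligodendrocyte genes summed to 9046, 3906 and 5806 CPM, 12 of 20 were at least 2-fold lower from early to medium, and the log2 ratio was -1.21. Medium library D stood at 10948 CPM and the other medium libraries at 1848 to 2299, and without library D the ratio was -2.15. Leaving out few-marker cells gave -1.99. Medium library D was the only medium library of run 3, and it lay between early libraries C (14021 CPM) and D (8801 CPM) of that run. The early libraries of runs 1 and 2 were at 5589 and 6258 CPM. The ratio of -2.15 still counts the early libraries of run 3. From early to late the ratio was -0.64, with 7 of 18 genes lower, but it was 0.03 in run 1, 0.28 in run 2 and -1.80 in run 3. Mbp, the myelin basic protein gene, was at 643, 240 and 405 CPM, or 673, 142 and 423 CPM without the few-marker cells. Oligodendrocyte markers in the other CD45- cells were highest in the early sample, and the part of free myelin RNA in these values was not tested.

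**Figure D5:**
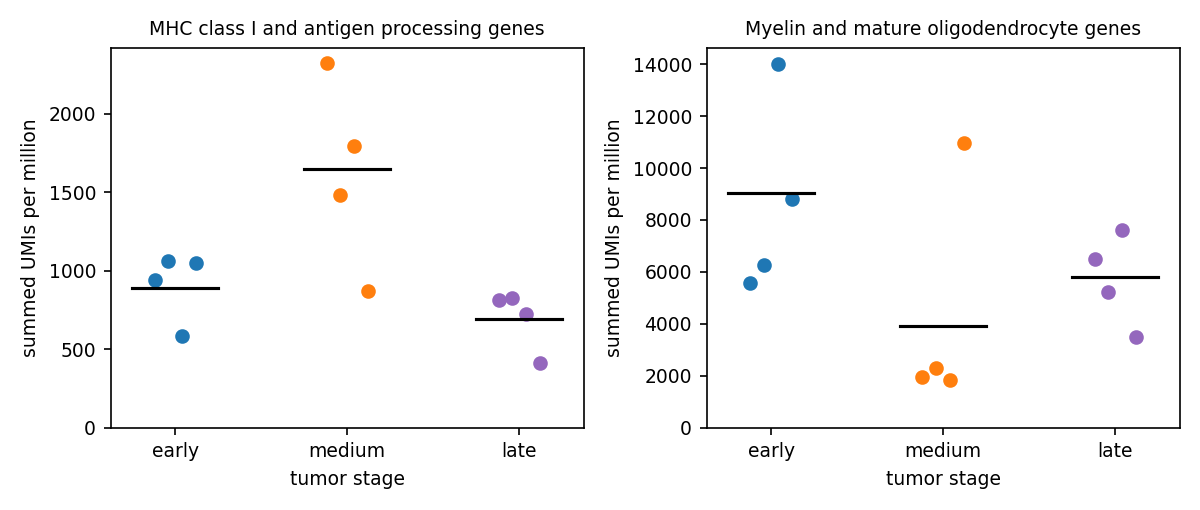
Summed level in CPM of MHC class I and antigen processing genes and of myelin genes in members of each CD45- library, 4 libraries per stage, with a bar at the value of the whole stage. MHC class I is at 893, 1650 and 692 CPM, and medium library D stands apart in myelin RNA at 10948 CPM.

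Single genes with the largest stage ratios rested on few UMIs or few cells. From early to late the 8 highest were Sept5, Nup210, Atad2b, Bcas1, B3galt6, Fn1, Akna and Zmiz2. Nup210, a nuclear pore gene, had 6, 14 and 18 UMIs in early, medium and late members, and Atad2b, a bromodomain gene, had 6, 13 and 18. Of 17 late UMIs, Fn1, the fibronectin gene, had 10 in 1 cell and Akna had 16 in 1 cell. The 8 lowest were Hbb-bs, Hba-a1, Folr1, Trpm3, Clcn7, Otx2, Fam107b and Mitf. Hbb-bs, the hemoglobin beta gene of red cells, had 52, 1 and 0 UMIs and Hba-a1, its alpha partner, 36, 0 and 0. Folr1 and Otx2, genes of the choroid plexus, had 51, 20 and 0 and 30, 17 and 0 UMIs, all of them in few-marker cells. Clcn7, a lysosomal chloride transporter, had 31, 16 and 0 UMIs, of which 30, 16 and 0 were in cells with at least 3 markers.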

How the data were processed

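CD45- and CD45+ cells of 3 tumor samples were measured by inDrop in 24 libraries (12 CD45-). The authors deposited raw UMI counts per gene and cell, assigned with RapMap in bcbio-nextgen to GRCm38 transcripts (Ensembl v.94) and the transgenes (the labels list build mm10); no normalization was applied, and 109 of 50262 rows have no symbol. The deposited annotation gave library, stage and sort of each cell. In their own analysis the authors corrected cell profiles for free RNA (DropletUtils) and left out doublets (scDblFinder); whether the deposited counts were taken before or after these steps is not given in the sources used here.

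Cells with at least 500 UMIs, 500 genes and at most 20% mitochondrial UMIs were kept. Scrublet (scanpy 1.11.5, expected rate 6%) marked 80 of 6676 kept CD45- cells, which were left in. UMIs were summed per tumor sample and class (medians 2778 UMIs per member, 730 to 17573) and tested with edgeR 4.0.16 in R 4.3.3 (TMM, filterByExpr, robust quasi-likelihood F-test, tumor sample as block, two-sided, Benjamini-Hochberg); the block rests on both classes coming from the same tumor. Standard errors of log2 differences were back-calculated as the absolute difference divided by the square root of the F statistic of this test. On counts simulated for this comparison over 9634 genes, 8.6% of 2-fold and 70.4% of 4-fold changes were recovered, with 1.74% of calls false. The counts were drawn with the same spread for every gene and no difference between tumors. These rates belong to that model, and the rate of false calls in the tumors themselves was not tested. Stage ratios added 0.5 UMIs to each count. Poisson and Clopper-Pearson 95% intervals came from scipy 1.17.1. Coordinates are those of GENCODE M21 (GRCm38). Genes of the rule and sex-linked Xist and Tsix were left out of results. Some further items, among them results the rule for named genes would give, are not reported here.

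Members, the 21 gene lists and the 12 marker lists were chosen with earlier results of these data known. Named genes were up to 6 genes per list with the highest level in members, every gene of lists of 10 or fewer, the 10 largest differences past the threshold in each direction with at least 20 CPM in the higher class and 1 direction in both tumors, and the 8 highest and lowest ratios of late to early among genes with at least 20 UMIs, 1 direction in medium to early and an established symbol; other names in the text were picked after their values were seen. Alternatives were DESeq2 1.42.0, no TMM, other filters, thinning to 1000 UMIs per cell, single runs, libraries left out and, added after seeing the data, at least 3 markers, shared barcodes left out and shares of cells without transgene UMIs.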

Additional observations from a re-analysis of the deposited data

Results flagged for a closer look

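Some libraries stood apart from the other libraries of their stage by Dixon's test at its 95% critical value, which chance alone passes in about 1 of 20 of the 66 groups of 4 libraries looked at. The share of members in early library A of run 1 was 4.72%, against 6.09% to 6.22% in the others. Myelin and mature oligodendrocyte genes were at 10948 CPM in medium library D of run 3, against 1848 to 2299. The G2 and M phase genes were at 1827 CPM in medium library B of run 2, against 67.0 to 179, and at 2132 CPM in late library D of run 3, against 0 to 169. The only medium member with at least 10 UMIs of these genes held 165 of the stage's 206 and had 1 of the 14 OPC markers. Medium members with at least 3 markers held 37.

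The other library values were as follows. Notch ligands, receptors and targets were at 760 CPM in medium library C of run 2, against 504 to 538. Glutamate and GABA receptor genes were at 2642 CPM in the same library, against 2033 to 2126. Immediate-early and stress genes were at 23437 CPM in late library A of run 1, against 15758 to 16734. MHC class II genes were at 181 CPM in early library B of run 2, against 6.34 to 33.1. Glycolysis and hypoxia genes were at 2148 CPM in early library B, against 3342 to 3526, and at 3741 CPM in medium library D of run 3, against 2824 to 2972. Chemokine and cytokine genes were at 103 CPM in late library D of run 3, against 310 to 337.

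For 2 lists, members and transgene cells differed in opposite directions in the tumors with a 95% counting interval clear of 0 in both, a difference between tumors that was not tested. Other lists, among them MHC class I and antigen processing genes (-2.60 medium, 0.19 late) and MHC class II genes (-3.05 and 0.65), had opposite signs with an interval across 0 in at least 1 tumor. Committed precursor genes were lower in members of the medium tumor (4242 CPM against 5857, log2 difference -0.47) and higher in members of the late tumor (5998 against 4358, 0.46). Chemokine and cytokine genes were at 278 CPM against 506 in the medium tumor (-0.86) and at 272 against 157 in the late tumor (0.80).

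Among the CD45+ cells, which no comparison used, 26 of 11218 passed the rule for members, 0.232% (0.151 to 0.339 by the exact interval). They were 16 early, 7 medium and 3 late cells, 23 of them with at least 3 OPC markers and 4 with a UMI of Ptprc, the CD45 gene.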

How the results depend on the processing

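Members against transgene cells: the test called 643 genes higher and 963 lower. Without the block and with every profile (the pairing left out) it called 662 and 896, with DESeq2 121 and 361, after thinning cells 182 and 187, with every gene of at least 1 count 302 higher and with shared barcodes left out 414 higher. Leaving out 1 run gave 116 to 368 higher and 190 to 544 lower, the lowest without run 3. Dropping the block and 1 tumor sample together gave 288 to 469 and 550 to 703; the highest left out the early sample, which the blocked test does not use, so that fit differs by the block alone. For the 20 genes named for size taken singly, 266 values kept their direction and call and 9 kept the direction only. The 266 include a setting of at least 30 cells per profile, which left every profile in and so could not change a value. Settings in which a gene could not be tested are not counted.

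Shares of members: the early share was 7.07% with Pdgfra of at least 1, 4.46% of every deposited cell, 7.23% of cells with at least 2000 UMIs and 4.36% after thinning. The medium share was 4.05% of every deposited cell and 7.37% of cells without transgene UMIs. The late share was 5.00% with Pdgfra of at least 1 and 6.15% of cells without transgene UMIs. It was 3.27% of every deposited cell, 2.79% of cells with at least 2000 UMIs and 3.35% after thinning. Early and late intervals overlap after thinning and over every deposited cell (3.84 to 5.15 and 2.62 to 4.02). They do not overlap with Pdgfra of at least 1 or in cells with at least 2000 UMIs. Leaving out 1 library gave 5.67% to 6.17%, 5.16% to 6.59% and 3.14% to 3.76%. Thinned to 1000 UMIs, the share of members with at least 2 UMIs of the OPC identity list was 92.3% early (98.1% unthinned), of the G2 and M phase genes 3.33% medium (9.68%), and of the myelin list 74.2%, 57.8% and 68.9% (93.8%, 87.1% and 87.3%).

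Stage ratios: genes past 2-fold, higher and lower, numbered 166 and 189 (late to early), 194 and 198 (medium to early) and 114 and 117 (late to medium) after thinning, and 265 and 158, 221 and 144, and 201 and 139 in run 1. Run 2 gave 366 and 388 late to early and 335 higher late to medium, run 3 373 higher medium to early and 140 and 149 late to medium, and a prior of 2 UMIs 431 lower late to early. Reversed from late to early were Akna, at -0.11 in cells of at least 2000 UMIs, -0.61 without late library D (leaving out other libraries, up to 3.13), -0.24 in run 1 and -0.15 in run 2, and Fn1 at -0.24 in run 1. Myelin and mature oligodendrocyte genes were at 0.029 in run 1 and 0.28 in run 2. G2 and M phase genes were at -1.95 without late library D and 1.71 without early library B, -0.24 in run 1 and -2.83 in run 2. Immediate-early and stress genes were at -0.28 as a mean over cells, -0.24 thinned, 0.18 without early library B, -0.0076 without early library A, -0.044 without late library A, -0.27 in run 2, -0.017 in run 3 and -0.11 in cells with at least 3 markers. MHC class II genes were at 0.67 without early library B and down to -2.08 without others. Fewer cells or UMIs in these settings leave fewer genes tested; other causes were not tested. Depth limits genes under 20 UMIs over members, and changes under 4-fold are often missed.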
